A study of Mus musculus with 6 samples.

Results

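The antioxidant enzymes and thioredoxins are the proteins that keep a cell's cysteines reduced and clear superoxide and hydrogen peroxide. Of 10 member genes (Txn1, Txnrd1, Prdx2, Prdx5, Cat, Gpx1, Sod1, Sod2, Gsr and Nqo1), 9 had at least 1 probe set annotated to the gene alone, and these 22 probe sets of 45037 tested are described here. Prdx5 had no such probe set and has no level here. Txn1 was taken under its present symbol or the older one, Txn.

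Levels come from 6 Affymetrix arrays of splenocyte RNA. The mice were females of the nonobese diabetic (NOD) strain, whose immune cells destroy the insulin-producing islets without any induction. TSA-treated mice had been given trichostatin A (TSA), which blocks histone deacetylases, under the skin once a week from week 18 to week 24 of life, each dose being 500 µg/kg, and by the study's methods only mice cured of diabetes were taken. The untreated diabetic mice had become diabetic, and the untreated non-diabetic mice had not, by the end of observation. The labels give 32 to 36 weeks of age for all groups, whereas the methods give a younger age range to the diabetic mice than to the TSA-treated mice, so that by the methods age and group cannot be told apart. Each group was 1 pool of RNA, from 3 to 5 mice by the labels and from somewhat more by the methods, labelled and hybridized in duplicate. The 2 arrays of a group are therefore repeats of 1 pool, and every p-value below measures the spread between hybridizations, not between mice. The labels name no vehicle-treated group.

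Superoxide, formed by respiration and by the oxidase of phagocytes, is turned into hydrogen peroxide by the superoxide dismutases, Sod1 in the cytosol and Sod2 in mitochondria. Catalase (Cat) and glutathione peroxidase 1 (Gpx1) then remove the peroxide, and Gsr returns oxidized glutathione to its reduced form. Peroxiredoxins such as Prdx2 remove it too, drawing on thioredoxin (Txn1), which Txnrd1 recharges with NADPH. Nqo1 reduces quinones and is a classic target of the transcription factor NRF2, encoded by Nfe2l2. In the spleen these enzymes are found in all cells, with Prdx2, catalase and Gpx1 abundant in red cells and their precursors, which the mouse spleen also makes.

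Promoter sequences of the members are shown as background, and any link between them and the levels was not tested. RefSeq (GRCm38.p6) gave 11 promoters of 9 members, from 250 bases before to 50 after the start, with none matched for Gsr. Prdx5, which has no level here, is among these 9. The GC box GGGCGG, searched on both strands with overlaps counted, was in 9 of the 11, against 35.7% of 32851 promoters of the same length. The core of the antioxidant response element, TGACNNNGC, searched likewise, was in 2 of the 11, against 12.4% of all. These matched letters read GCTTTGTCA, on the opposite strand, in the second of 3 Txnrd1 promoters and GCGTGGTCA, likewise on the opposite strand, in that of Sod1. A match is a run of letters and not a known site, and no factor was measured at these sequences. The 250 bases before the start follow for the 4 genes whose levels the results turn on, 5′ to 3′ on the gene's strand, with each GC box in capitals on either strand.
Cat, chr2:103485154-103485403, minus strand: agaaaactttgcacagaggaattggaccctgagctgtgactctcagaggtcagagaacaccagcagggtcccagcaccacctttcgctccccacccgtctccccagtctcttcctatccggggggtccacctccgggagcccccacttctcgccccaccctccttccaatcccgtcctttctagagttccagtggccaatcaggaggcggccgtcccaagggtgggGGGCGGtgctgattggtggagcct
Sod1, chr16:90220512-90220761, plus strand: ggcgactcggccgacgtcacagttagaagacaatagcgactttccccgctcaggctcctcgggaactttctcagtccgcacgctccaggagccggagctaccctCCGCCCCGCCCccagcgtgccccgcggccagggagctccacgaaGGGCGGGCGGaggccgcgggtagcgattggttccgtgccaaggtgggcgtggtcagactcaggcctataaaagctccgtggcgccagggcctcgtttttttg
Txn1, chr4:57956412-57956661, minus strand: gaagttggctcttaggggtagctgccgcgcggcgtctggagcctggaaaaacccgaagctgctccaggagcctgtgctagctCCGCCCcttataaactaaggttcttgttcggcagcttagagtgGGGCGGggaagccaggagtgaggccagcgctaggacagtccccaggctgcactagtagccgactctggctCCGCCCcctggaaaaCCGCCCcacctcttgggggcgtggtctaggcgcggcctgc
Nqo1, chr8:107403206-107403455, minus strand: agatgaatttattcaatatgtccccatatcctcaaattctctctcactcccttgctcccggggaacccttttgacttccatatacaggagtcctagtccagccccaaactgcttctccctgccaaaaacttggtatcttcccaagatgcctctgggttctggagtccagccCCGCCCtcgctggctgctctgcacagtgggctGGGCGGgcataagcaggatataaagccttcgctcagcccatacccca
By these letters, Cat had 1 GC box and Nqo1 had 2 in the stretch shown, while Sod1 and Txn1 had 4 each.

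Some arrays stood apart from their labels' partner, which bears on every value given here. TSA-treated replicate 1 was nearest to diabetic replicate 2 (Pearson r over all probe sets 0.9896, against 0.9656 with its own duplicate), and diabetic replicate 1 had a lower r with its own duplicate (0.9726) than with both non-diabetic arrays (0.9871 and 0.9853). The log2 signal of the 3′ control probe set minus the 5′ one, which grows as RNA or its copy is shorter, was highest on TSA-treated replicate 2, at 5.61 for beta-actin and 4.58 for Gapdh. It was 3.45 and 3.85 on TSA-treated replicate 1, 2.42 to 3.32 and 1.82 to 3.19 in diabetic mice, and 2.05 to 2.35 and 1.91 to 2.67 in non-diabetic mice. Duplicates of the members differed by a median of 0.537 in TSA-treated, 0.247 in diabetic and 0.153 in non-diabetic mice, against 0.289, 0.237 and 0.137 over all probe sets. TSA-treated replicate 1 was above replicate 2 in 12 of 22 members (42.1% of all), and diabetic replicate 2 above replicate 1 in 13 of 22 (51.5%).

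Most members had their highest level in TSA-treated mice and their lowest in untreated non-diabetic mice, but no member probe set passed the test in any comparison. Group means ran TSA-treated over diabetic over non-diabetic in 13 of the 22 probe sets and in 7 of the 9 brightest ones (the probe set of each gene with the highest mean over the 6 arrays), as they did in 26.9% of all probe sets. The 3′ minus 5′ signal of beta-actin had the same order of groups without overlap. That of Gapdh was also highest on the TSA-treated arrays, while the untreated groups overlapped. The part of RNA quality in the members' order was not tested. With 1 array left out at a time, 10 to 15 of the 22 had this order of means, the fewest without diabetic replicate 1 and the most without TSA-treated replicate 2. The share of all probe sets with it was 19.5% and 25.1% in those settings, and 28.1% at most, without TSA-treated replicate 1. Catalase had the lowest adjusted p, 0.127, at 2.28-fold higher in TSA-treated than in untreated non-diabetic mice. Levels here are on the log2 scale of the Robust Multi-array Average, so that a difference of 1 is a doubling, and a probe set was called at a Benjamini-Hochberg adjusted p under 0.05 from limma fitted over all 45037.

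**Figure D1:**
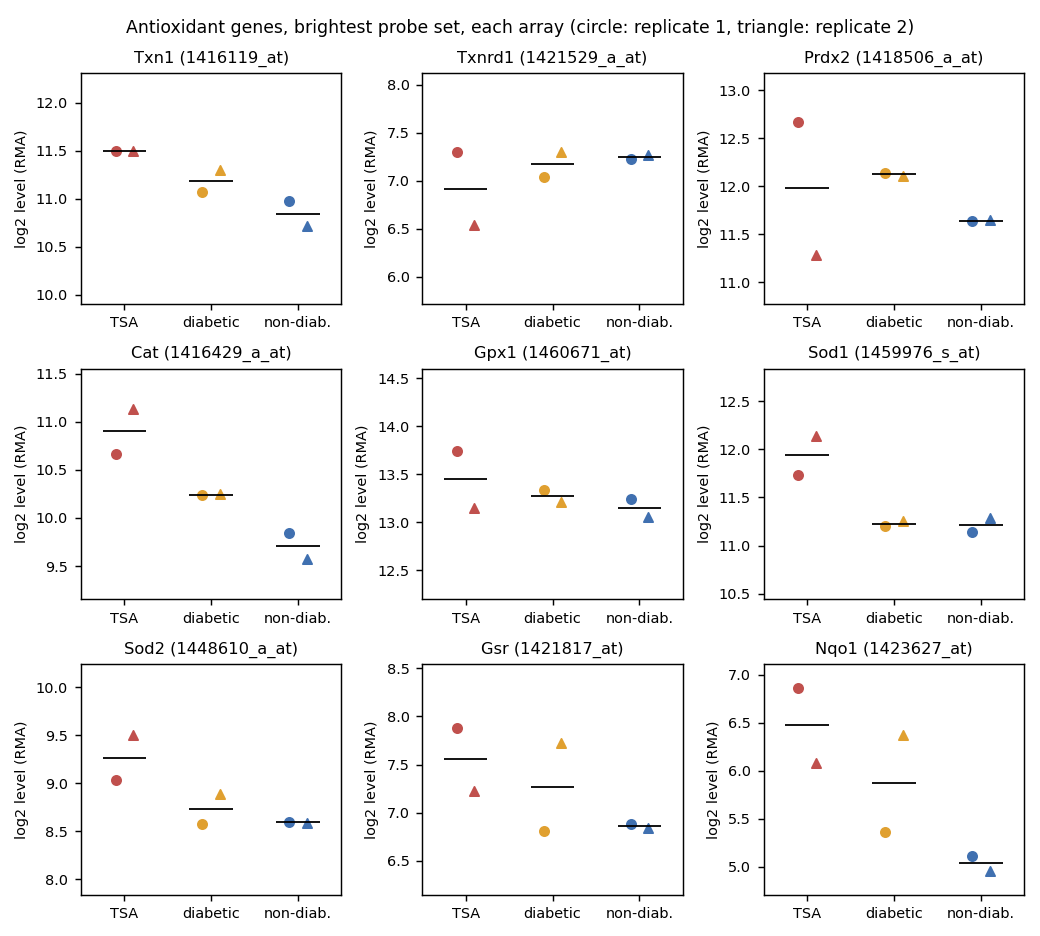
Log2 level of the brightest probe set of each of 9 antioxidant genes on each array (circle, replicate 1, triangle, replicate 2, line, mean of the group), with TSA-treated mice left, untreated diabetic mice in the middle and untreated non-diabetic mice right, every panel spanning the same height in log2 units. For Cat both TSA-treated arrays (10.67 and 11.13) lie above both diabetic and both non-diabetic arrays, while the 2 TSA-treated arrays of Prdx2 (12.67 and 11.29) lie on either side of all others.

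Between TSA-treated and untreated diabetic mice, limma called 0 of the 22 probe sets, against 0.0266% of all probe sets. At an unadjusted p under 0.05, 2 members, the brightest probe sets of Cat and Sod1, were higher (2.21% of all probe sets) and 0 lower (2.06%). Without TSA-treated replicate 2 there were 4 members higher and 0 lower, against 2.14% and 1.33% of all probe sets, and without TSA-treated replicate 1 there were 6 and 4, against 11% and 10.2%. Without diabetic replicate 1 there were 1 and 0, against 1.69% and 2.66%, and without diabetic replicate 2 there were 4 and 1, against 3.76% and 4.33%. Both arrays of TSA-treated mice lay above both of diabetic mice in 7 members (16.2% of all) and below in 0 (11.4%). The difference was positive in 15 of 22, or 68.2%, against 54.2% of all, and its median over the members was 0.289, against 0.0249 over all probe sets. The lowest adjusted p of a member was 0.902. The local pooled error (LPE) test, which the methods name, also called 0 (0.127% of all), and had 0 at an unadjusted p under 0.05 (0.953% of all).

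Set against untreated non-diabetic mice, TSA-treated mice had the most members past an unadjusted p under 0.05 of the 3 comparisons with all 6 arrays in the fit. Limma again called 0 of 22 members (0.0688% of all probe sets), while 8 were higher at an unadjusted p under 0.05 (6.39% of all) and 1 was lower (8.34%). Without TSA-treated replicate 2 these counts were 10 and 0, against 7.01% and 5.6% of all probe sets. They were 5 and 0 without non-diabetic replicate 1, against 3.07% and 4.53%, and 2 and 0 without non-diabetic replicate 2, against 2.37% and 3.09%. The 8 were probe sets of Cat, Nqo1, Txn1, Prdx2, Sod1 (2 of them) and Sod2 (2 of them). In 11 members both TSA-treated arrays lay above both non-diabetic arrays (26.3% of all), and in 1 below (21.5%). A positive difference was seen in 19 of 22, or 86.4%, against 57.2% of all, with a median of 0.647 against 0.0517. The LPE test called 1 member, the dim Sod1 probe set 1440222_at described below, and 1.88% of all probe sets, and at an unadjusted p under 0.05 it had 3 members and 6.72% of all. Without TSA-treated replicate 1, limma called 3 members here and 1 against diabetic mice, beside 4.54% and 2.32% of all probe sets, while 8 members were higher and 1 lower than in non-diabetic mice at an unadjusted p under 0.05, against 13.7% and 12.3%, and the called members are named below.

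In untreated diabetic against untreated non-diabetic mice limma also called 0 of 22 members (0.0888% of all). There 1 member, the brightest probe set of Cat, was higher at an unadjusted p under 0.05 (2.84% of all) and 0 lower (3.43%). It was 3 higher and 0 lower without either TSA-treated array, against 4.34% and 4.36% of all, and 3 higher and 1 lower without diabetic replicate 1, against 7.67% and 6.67%. It was 0 either way without diabetic replicate 2, against 1.12% and 1.78%, and without either non-diabetic array, against 0.715% to 1.04% and 0.915% to 1.71%. Diabetic arrays lay wholly above non-diabetic ones in 9 members (21.6% of all) and below in 0 (19.4%). The difference was positive in 18 of 22, or 81.8%, against 52.3% of all, with a median of 0.214 against 0.0122. LPE called 0 (0.666% of all), with 3 at an unadjusted p under 0.05 (3.88% of all). The 3 comparisons share arrays, so a member that stood low in non-diabetic mice counts in 2 of them.

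**Figure D2:**
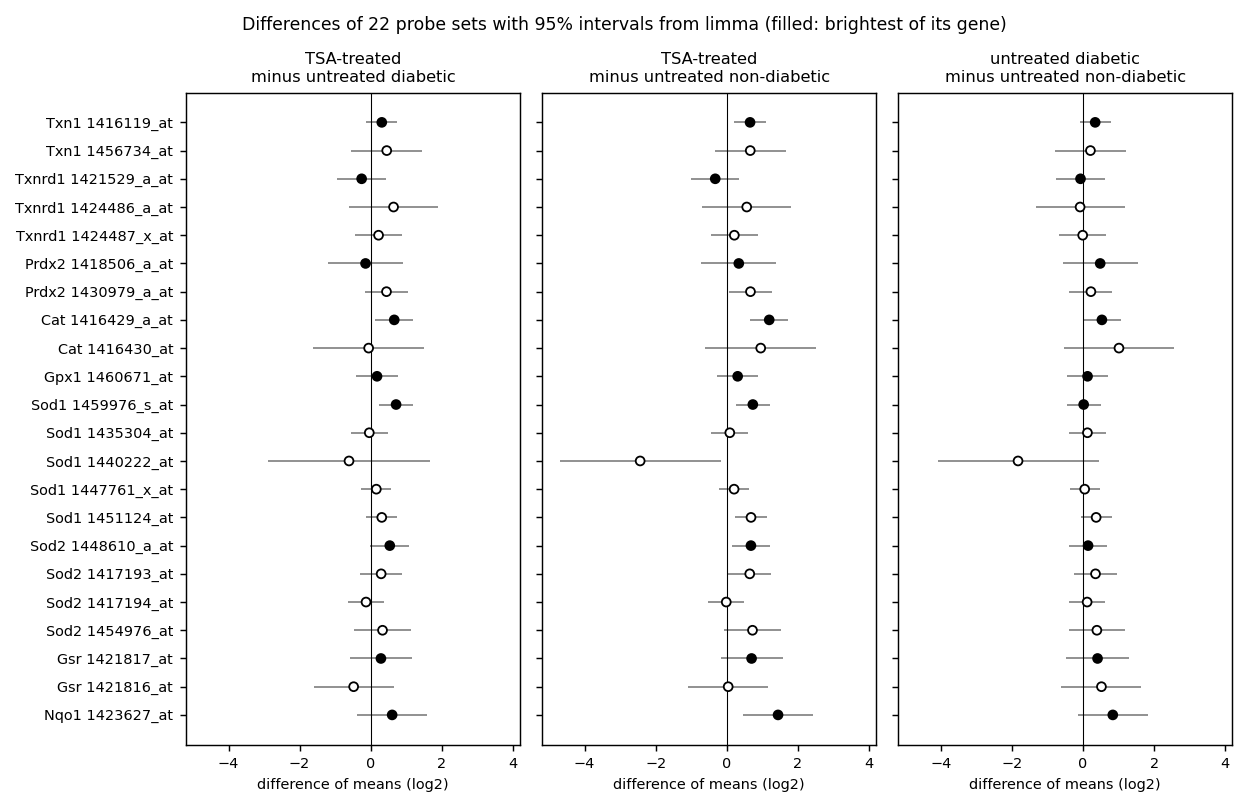
Difference of group means (log2) of all 22 member probe sets in the 3 comparisons, with 95% intervals from limma; filled points are the brightest probe set of a gene. Most points lie right of 0 in the middle panel (TSA-treated minus untreated non-diabetic mice, 19 of 22), and the lone far point on the left there is Sod1 probe set 1440222_at, at -2.44.

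Thioredoxin itself had close duplicates in TSA-treated mice. Its main probe set, 1416119_at, was at 11.50 and 11.49 in TSA-treated mice, 11.07 and 11.30 in untreated diabetic mice and 10.97 and 10.72 in untreated non-diabetic mice. Both TSA-treated arrays were above all 4 others, and the diabetic arrays were above the non-diabetic ones. TSA-treated mice were 0.65 ± 0.18 (SE) above non-diabetic mice, or 1.57-fold (95% interval 0.21 to 1.09, adjusted p = 0.21 from limma), and 0.31 ± 0.18 above diabetic mice (adjusted p = 0.902). Diabetic mice were 0.34 ± 0.18 above non-diabetic mice (adjusted p = 0.844). Neither difference between neighbours in the order of the 3 groups was called. Their 95% intervals, -0.13 to 0.75 and -0.099 to 0.78, included 0. With 1 array left out, the differences of TSA-treated from diabetic mice and of diabetic from non-diabetic mice ran from 0.19 to 0.43 and from 0.21 to 0.47. The second Txn1 probe set, 1456734_at, was at 5.87 and 7.16 in TSA-treated, 6.07 and 6.07 in diabetic and 5.92 and 5.79 in non-diabetic mice. It stood out on TSA-treated replicate 2 alone, and without TSA-treated replicate 1 its difference from non-diabetic mice, 1.30, was called (adjusted p = 0.0322).

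Thioredoxin reductase 1, which reduces Txn1, did not share that order in its brightest probe set. Txnrd1 probe set 1421529_a_at was at 7.30 and 6.54 in TSA-treated mice, 7.04 and 7.31 in diabetic mice and 7.23 and 7.27 in non-diabetic mice. A single array, TSA-treated replicate 2, was low, and the differences of TSA-treated from diabetic and non-diabetic mice were -0.26 ± 0.28 and -0.33 ± 0.28 (adjusted p = 0.917 and 0.649). Without that array they were 0.12 and 0.05. Probe set 1424486_a_at of the same gene ran the other way on the same array, at 4.23 and 5.89 in TSA-treated, 4.35 and 4.49 in diabetic and 4.40 and 4.61 in non-diabetic mice. Its differences from diabetic and non-diabetic mice, 0.64 and 0.56 over both TSA-treated arrays, became 1.47 and 1.39 without TSA-treated replicate 1 and were then called (adjusted p = 0.0397 and 0.0345), and they turned to -0.19 and -0.27 without replicate 2. The third, 1424487_x_at, was at 2.54 and 3.30 in TSA-treated, 2.77 and 2.63 in diabetic and 2.64 and 2.79 in non-diabetic mice, below the array medians of 3.791 to 3.954 on all 6 arrays, where a difference is compressed.

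Peroxiredoxin 2, a thioredoxin-dependent peroxidase abundant in red cells, had the widest gap between TSA-treated duplicates among the brightest probe sets. Prdx2 probe set 1418506_a_at was at 12.67 and 11.29 in TSA-treated mice, 12.14 and 12.11 in diabetic mice and 11.64 and 11.65 in non-diabetic mice. Diabetic arrays were thus 0.48 ± 0.43 above non-diabetic arrays (1.40-fold, adjusted p = 0.975) with very close duplicates, and the SE draws mostly on the spread of the TSA-treated pair, since the 3 groups share 1 estimate. TSA-treated mice differed from diabetic mice by -0.15 ± 0.43 (adjusted p = 0.965) with both arrays. Without TSA-treated replicate 2 the value was 0.55 (adjusted p = 1) and the one against non-diabetic mice 1.03 (adjusted p = 0.192), while without replicate 1 they were -0.84 and -0.36. The dimmer probe set, 1430979_a_at, was at 6.35 and 5.68 in TSA-treated, 5.59 and 5.56 in diabetic and 5.41 and 5.30 in non-diabetic mice. There both TSA-treated arrays were the highest, by 0.66 ± 0.25 over non-diabetic mice (adjusted p = 0.301) and 0.44 ± 0.25 over diabetic mice (adjusted p = 0.902).

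Catalase, the heme enzyme that splits hydrogen peroxide, showed the clearest order of the members. Cat probe set 1416429_a_at was at 10.67 and 11.13 in TSA-treated mice, 10.24 and 10.25 in diabetic mice and 9.85 and 9.58 in non-diabetic mice, with no overlap between any groups. The difference of TSA-treated from non-diabetic mice was 1.19 ± 0.22 (2.28-fold, 95% interval 0.66 to 1.72, adjusted p = 0.127), the lowest adjusted p of any member in any comparison. Against diabetic mice it was 0.66 ± 0.22 (1.58-fold, adjusted p = 0.902), and diabetic mice were 0.53 ± 0.22 above non-diabetic mice (1.44-fold, adjusted p = 0.796). Leaving out TSA-treated replicate 1 brought the first of these to 1.42, and it was then called (adjusted p = 0.035). Leaving out replicate 2 gave 0.96 (adjusted p = 0.219), and with any 1 array left out the differences of TSA-treated from diabetic mice and of diabetic from non-diabetic mice ran from 0.43 to 0.89 and from 0.39 to 0.67. The other Cat probe set, 1416430_at, was at 9.99 and 8.03 in TSA-treated, 8.66 and 9.48 in diabetic and 7.99 and 8.12 in non-diabetic mice. On it TSA-treated replicate 2 was as low as the non-diabetic arrays while it was the highest array on 1416429_a_at, so the 2 probe sets disagreed most on that array. Its differences of TSA-treated from diabetic and non-diabetic mice were -0.06 ± 0.64 and 0.95 ± 0.64 (adjusted p = 0.992 and 0.559).

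Gpx1 had the narrowest range of group means among the 9 genes, 0.3023. Its only probe set, 1460671_at, was at 13.75 and 13.15 in TSA-treated mice, 13.33 and 13.21 in diabetic mice and 13.24 and 13.05 in non-diabetic mice. TSA-treated replicate 2 lay within the range of the untreated arrays, replicate 1 above all of them. The 95% interval of the difference ran from -0.40 to 0.76 against diabetic mice and from -0.28 to 0.88 against non-diabetic mice. Between diabetic and non-diabetic mice it ran from -0.45 to 0.71. Without TSA-treated replicate 1 the difference of TSA-treated from non-diabetic mice was 0.0042, and without replicate 2 it was 0.60.

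Glutathione reductase differed between the duplicates of TSA-treated and of diabetic mice. Gsr probe set 1421817_at was at 7.88 and 7.23 in TSA-treated mice, 6.81 and 7.72 in diabetic mice and 6.88 and 6.84 in non-diabetic mice. Diabetic replicate 2 reached the TSA-treated range and diabetic replicate 1 stayed at the non-diabetic level. TSA-treated mice were 0.69 ± 0.36 above non-diabetic mice (adjusted p = 0.443) and 0.29 ± 0.36 above diabetic mice (adjusted p = 0.926), and diabetic mice 0.41 ± 0.36 above non-diabetic mice (adjusted p = 0.972). The first of these was 0.37 without TSA-treated replicate 1 and 1.02 without replicate 2. Probe set 1421816_at, at 5.15 and 3.91 in TSA-treated, 4.66 and 5.37 in diabetic and 4.29 and 4.71 in non-diabetic mice, had TSA-treated replicate 2 as its lowest array. Its difference from diabetic mice was -0.48 ± 0.46 (adjusted p = 0.909), of the opposite sign to that of the brighter probe set.

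The brightest probe set of the cytosolic superoxide dismutase was at like levels in both untreated groups and higher on both TSA-treated arrays, without passing the test. Sod1 probe set 1459976_s_at was at 11.74 and 12.15 in TSA-treated mice, 11.20 and 11.25 in diabetic mice and 11.14 and 11.29 in non-diabetic mice. Both TSA-treated arrays were above all untreated arrays, and the untreated groups overlapped. The differences were 0.71 ± 0.20 from diabetic mice (1.64-fold, 95% interval 0.23 to 1.19, adjusted p = 0.902) and 0.73 ± 0.20 from non-diabetic mice (1.66-fold, adjusted p = 0.203), and that between the untreated groups was 0.02 ± 0.20 (95% interval -0.46 to 0.50, adjusted p = 1). Probe set 1451124_at gave a graded order instead, at 10.87 and 10.64 in TSA-treated, 10.33 and 10.57 in diabetic and 10.13 and 10.03 in non-diabetic mice. On it TSA-treated mice were 0.68 ± 0.18 above non-diabetic mice (adjusted p = 0.2) and 0.31 ± 0.18 above diabetic mice (adjusted p = 0.902).

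Of the remaining 3 Sod1 probe sets, 1440222_at and 1435304_at did not share these orders, and 1447761_x_at did so only at a level below the array medians. The widest difference of any member was on 1440222_at, and it ran down: 4.05 and 4.35 in TSA-treated mice, 6.30 and 3.33 in diabetic mice and 6.14 and 7.14 in non-diabetic mice. The difference of TSA-treated from non-diabetic mice was -2.44 ± 0.92 (95% interval -4.71 to -0.18, adjusted p = 0.309 from limma), and LPE called it (adjusted p = 0.00191). Its diabetic duplicates lay 2.96 apart, the widest gap of any member in any group. Averaging all 5 Sod1 probe sets, this one and the dim ones described next among them, lowered the differences of TSA-treated mice. The average gave -0.15 between TSA-treated and non-diabetic mice, where the brightest one gave 0.73. Between TSA-treated and diabetic mice it gave 0.10, where the brightest one gave 0.71. The dim probe set 1435304_at was at 5.98 and 6.38 in TSA-treated, 6.39 and 6.05 in diabetic and 6.13 and 6.07 in non-diabetic mice, with overlap between all groups. On 1447761_x_at all 6 arrays lay between 2.36 and 2.72, below the array medians.

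Sod2, the mitochondrial manganese enzyme, resembled Sod1 in its brightest probe set. Probe set 1448610_a_at was at 9.03 and 9.50 in TSA-treated mice, 8.57 and 8.89 in diabetic mice and 8.60 and 8.58 in non-diabetic mice. Both TSA-treated arrays were the highest, with the diabetic arrays on either side of the non-diabetic ones. The difference was 0.53 ± 0.22 from diabetic mice (1.45-fold, adjusted p = 0.902) and 0.68 ± 0.22 from non-diabetic mice (1.60-fold, adjusted p = 0.254). These were 0.77 and 0.91 without TSA-treated replicate 1 and 0.30 and 0.44 without replicate 2. A like difference from non-diabetic mice was measured by 1417193_at, 0.64 ± 0.24 (adjusted p = 0.31), and by 1454976_at, 0.72 ± 0.32 (adjusted p = 0.382). On both of these the TSA-treated and diabetic arrays overlapped, with differences of 0.29 ± 0.24 and 0.33 ± 0.32 (adjusted p = 0.904 and 0.912). The fourth, 1417194_at, at 3.48 and 3.24 in TSA-treated, 3.69 and 3.29 in diabetic and 3.47 and 3.29 in non-diabetic mice, lay below the array medians. Its TSA-treated mean differed by -0.02 ± 0.21 from the non-diabetic one (adjusted p = 0.982).

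**Figure D3:**
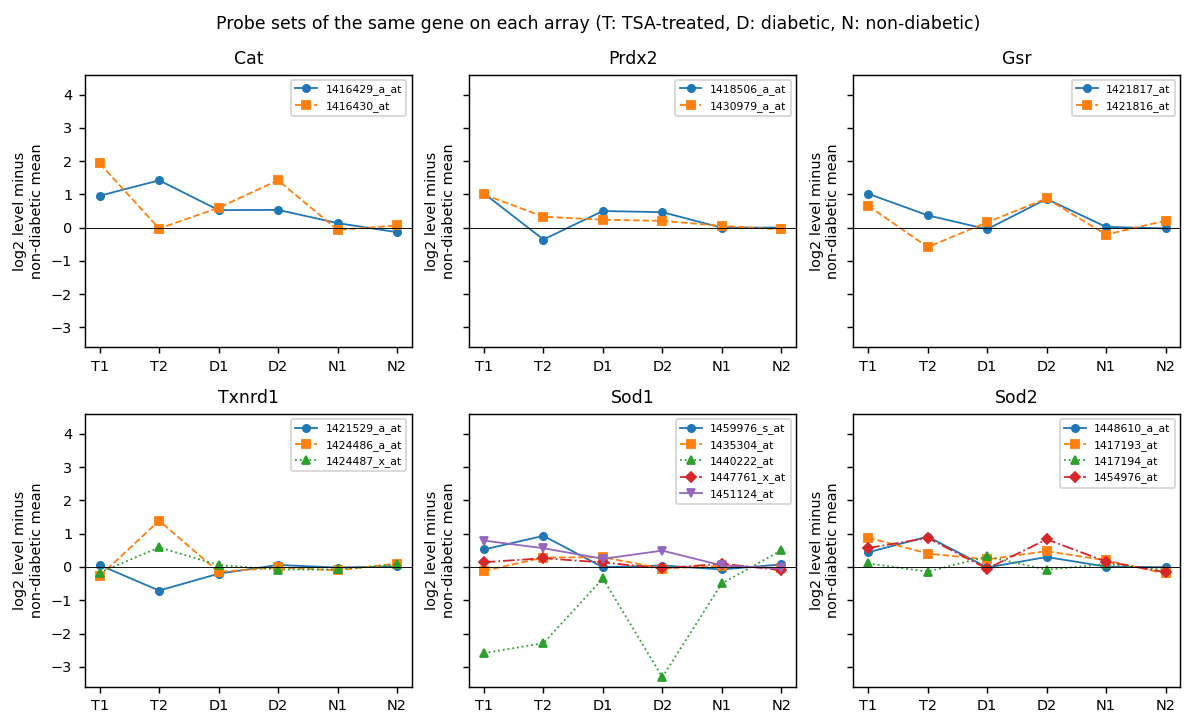
Log2 level of each probe set of 6 member genes on each array, less its mean in non-diabetic mice (T, TSA-treated; D, untreated diabetic; N, untreated non-diabetic; 1 and 2, replicates; lines join the arrays of a probe set as a guide and carry no order in time). The probe sets of Cat part on TSA-treated replicate 2, where 1416429_a_at was at 11.13 and 1416430_at at 8.03, and Sod1 probe set 1440222_at alone lies far below 0, on both TSA-treated arrays and diabetic replicate 2.

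Nqo1 had the widest range of group means of the brightest probe sets, 1.438. Its probe set 1423627_at was at 6.86 and 6.09 in TSA-treated mice, 5.37 and 6.38 in diabetic mice and 5.11 and 4.96 in non-diabetic mice. Both TSA-treated and both diabetic arrays were above the non-diabetic ones, and diabetic replicate 2 fell between the TSA-treated arrays. TSA-treated mice were 1.44 ± 0.40 above non-diabetic mice (2.71-fold, 95% interval 0.45 to 2.42, adjusted p = 0.212) and 0.60 ± 0.40 above diabetic mice (1.52-fold, adjusted p = 0.902). Diabetic mice were 0.84 ± 0.40 above non-diabetic mice (1.79-fold, adjusted p = 0.823). Without diabetic replicate 1 that value was 1.34 and the one of TSA-treated minus diabetic mice 0.096, while without diabetic replicate 2 they were 0.33 and 1.11. Without TSA-treated replicates 1 and 2 in turn, TSA-treated minus diabetic was 0.21 and 0.99.

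The 5 genes whose brightest probe set followed Nqo1 most closely over the 6 arrays, each centred on its own mean, were Tpx2 (root mean square difference 0.0838 on the log2 scale), Pir (0.1), Dyrk3 (0.11), Ear3 (0.115) and Parpbp (0.123). Tpx2, which builds the mitotic spindle, was at 8.30 and 7.38 in TSA-treated, 6.89 and 7.89 in diabetic and 6.54 and 6.30 in non-diabetic mice. Pir, the iron-binding protein pirin, was at 6.09 and 5.42, 4.84 and 5.56, and 4.31 and 4.22 in the same groups. All 5 put TSA-treated replicate 1 highest and diabetic replicate 2 next, as Nqo1 did. None of them was called in any comparison by limma, and 6 arrays from 3 pools allow a close match by array alone.

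Genes of the same pathways were counted from 6 lists of 67 genes, 1 probe set a gene. Over all 18193 genes so measured, 2.68% were higher and 2.81% lower at an unadjusted p under 0.05 in TSA-treated than in diabetic mice, 8.8% higher and 7.19% lower in TSA-treated than in non-diabetic mice, and 4.33% higher and 2.41% lower in diabetic than in non-diabetic mice. No gene of the 6 lists was called by limma at an adjusted p under 0.05 in any comparison, and the counts that follow are at the unadjusted one.

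In the rest of the thioredoxin system 10 of 10 genes were measured, and 1 was higher and 1 lower in TSA-treated than in diabetic mice, 2 higher and 1 lower than in non-diabetic mice, and 1 higher and 0 lower in diabetic than in non-diabetic mice. Txnl1, a thioredoxin-like protein bound to the proteasome, was at 11.19 and 11.56 in TSA-treated, 10.79 and 10.87 in diabetic and 10.51 and 10.46 in non-diabetic mice, 0.89 ± 0.19 above non-diabetic mice (adjusted p = 0.146). Tmx1, a membrane-bound relative in the endoplasmic reticulum, had the same order, at 0.93 ± 0.19 over non-diabetic mice (adjusted p = 0.147). Both had TSA-treated replicate 2 highest. Txnrd3, a reductase best known from testis, differed by -0.47 ± 0.16 between TSA-treated and diabetic mice (adjusted p = 0.902). The list's median differences were -0.22 against diabetic and -0.033 against non-diabetic mice, beside the members' 0.31 and 0.676 over 9 genes and 0.0235 and 0.0744 over all genes. Without TSA-treated replicate 2 the list's medians were 0.164 and 0.036, and without replicate 1 they were -0.618 and -0.4, while the members' were 0.474 and 0.654, and 0.214 and 0.648.

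Among the other peroxiredoxins and superoxide dismutases, 4 of 6 genes were measured, and 1 was higher and 1 lower in TSA-treated, and likewise in diabetic, than in non-diabetic mice, with 0 either way between TSA-treated and diabetic mice. Prdx3, the mitochondrial peroxiredoxin, was at 10.46 and 10.07 in TSA-treated, 9.97 and 10.32 in diabetic and 9.42 and 9.36 in non-diabetic mice. It was 0.87 ± 0.21 higher in TSA-treated (adjusted p = 0.18) and 0.75 ± 0.21 higher in diabetic mice (adjusted p = 0.735) than in non-diabetic mice. Sod3, the extracellular dismutase, ran the opposite way, at 4.45 and 4.94 in TSA-treated, 5.20 and 4.71 in diabetic and 5.85 and 5.48 in non-diabetic mice, a difference of -0.97 ± 0.27 between TSA-treated and non-diabetic mice (adjusted p = 0.213). Prdx4, the peroxiredoxin of the endoplasmic reticulum, was 0.48 ± 0.30 above non-diabetic mice (adjusted p = 0.534).

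Of the glutathione system 19 of 20 genes were measured, with 1 higher and 0 lower in TSA-treated than in diabetic mice and 4 higher and 1 lower than in non-diabetic mice, and 2 higher and 0 lower in diabetic than in non-diabetic mice. Gsta4, a glutathione transferase that clears lipid peroxidation products, was at 7.24 and 7.09 in TSA-treated, 5.85 and 6.46 in diabetic and 6.02 and 6.10 in non-diabetic mice, 1.01 ± 0.24 above diabetic mice (adjusted p = 0.902) and 1.11 ± 0.24 above non-diabetic mice (adjusted p = 0.149). Gclc, the catalytic subunit of the rate-limiting enzyme of glutathione synthesis, was 0.96 ± 0.23 higher in TSA-treated than in non-diabetic mice (adjusted p = 0.175). Glrx, a glutaredoxin, was 0.83 ± 0.19 higher in the same comparison (adjusted p = 0.16). The list's medians were -0.0583 against diabetic and 0.067 against non-diabetic mice, and without TSA-treated replicate 2 they were 0.104 and 0.129.

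Of the NADPH-supplying genes 6 of 7 were measured, with medians of 0.00544 against diabetic and 0.126 against non-diabetic mice, 0 past that threshold in either comparison of TSA-treated mice and 1, Idh1, higher in diabetic than in non-diabetic mice (0.54 ± 0.17, adjusted p = 0.765). Tkt and Pgd of the pentose phosphate pathway differed by 0.28 ± 0.16 and 0.20 ± 0.20 between TSA-treated and diabetic mice (adjusted p = 0.902 and 0.913). Of the NRF2 regulators and further targets, 14 of 15 were measured and 1 was higher in TSA-treated, and 1 in diabetic, than in non-diabetic mice, Nfe2l2 itself in both, at 9.22 and 9.05 in TSA-treated, 8.59 and 9.31 in diabetic and 8.29 and 8.24 in non-diabetic mice. Its difference from non-diabetic mice was 0.87 ± 0.26 in TSA-treated (adjusted p = 0.228) and 0.69 ± 0.26 in diabetic mice (adjusted p = 0.794). Fth1, the ferritin heavy chain, and Mafk, a small partner protein of NRF2, were 0.47 ± 0.19 and 0.38 ± 0.19 above non-diabetic mice in TSA-treated mice (adjusted p = 0.34 and 0.418).

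The oxidant-producing enzymes of phagocytes lay on the other side of 0. Of 8 measured of 9, 0 were higher and 2 lower in TSA-treated than in diabetic mice (Cyba and Mpo) and than in non-diabetic mice (Cyba and Rac2), with 0 either way between the untreated groups, and the medians were -1.0 and -0.701. Much of that size rested on TSA-treated replicate 2. Without it the medians were -0.288 and -0.183, with 3 and 2 lower and 0 higher, against 1.7% and 5.48% of all genes lower, and without replicate 1 they were -1.6 and -1.37. The numbers lower fell when either array of the untreated group compared was left out. The medians were then -0.949 and -0.962 without diabetic replicates 1 and 2 in turn, against diabetic mice. Against non-diabetic mice they were -0.753 and -0.656 without non-diabetic replicates 1 and 2 in turn. Rac2, a subunit of the phagocyte oxidase, was at 9.01 and 5.40 in TSA-treated, 9.66 and 9.58 in diabetic and 9.95 and 9.83 in non-diabetic mice. Cyba, a membrane subunit of the same oxidase, was at 7.72 and 5.27 in TSA-treated, 8.74 and 8.49 in diabetic and 8.99 and 9.12 in non-diabetic mice. Both were lowest on TSA-treated replicate 2, the array with the widest gap between 3′ and 5′ control signals, by more than the gap between the other TSA-treated array and the untreated ones. Mpo, the myeloperoxidase of neutrophils, was at 8.68 and 7.64 in TSA-treated, 9.22 and 9.31 in diabetic and 8.74 and 8.69 in non-diabetic mice, a difference of -1.10 ± 0.34 from diabetic mice (adjusted p = 0.902).

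**Figure D4:**
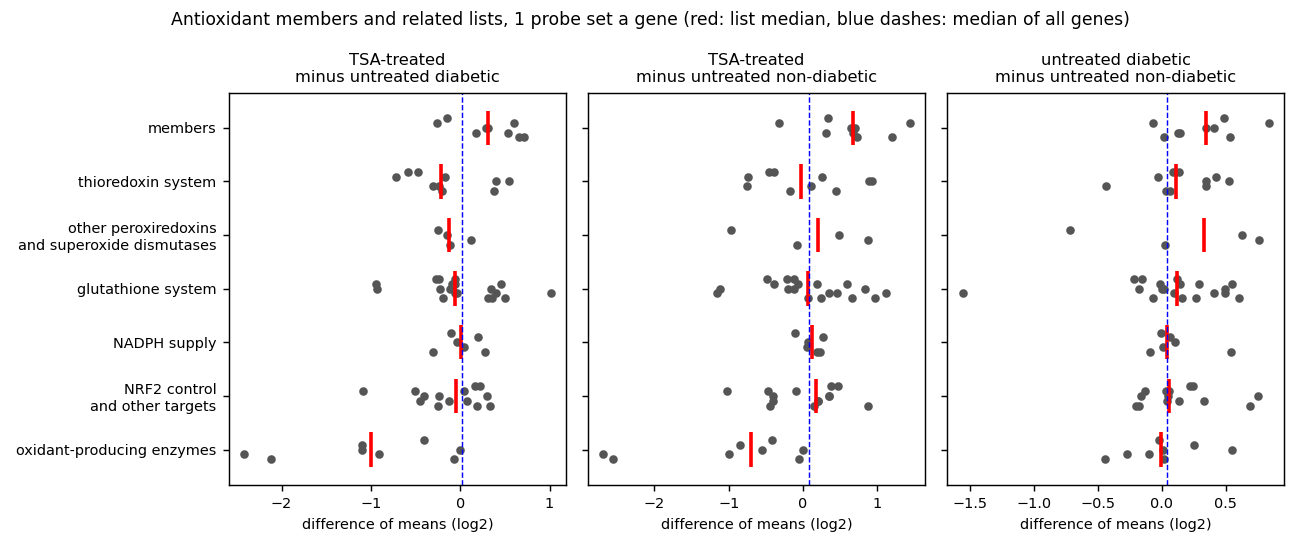
Difference of group means (log2) of the brightest probe set of each gene (grey points) for the 9 members and 6 related lists in the 3 comparisons, with each list's median as a red bar and the median of all 18193 genes as a blue dashed line. In TSA-treated minus untreated diabetic mice, the members' median lies at 0.31 and that of the oxidant-producing enzymes at -1.0, which without TSA-treated replicate 2 were 0.474 and -0.288.

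Most markers of red cell precursors moved in the same direction as the members. Of 18 measured of 23 erythroid genes, 10 were higher and 0 lower at an unadjusted p under 0.05 in TSA-treated than in non-diabetic mice, 6 and 0 in diabetic than in non-diabetic mice, and 2 and 0 in TSA-treated than in diabetic mice, with 0 called by limma and median differences of 0.643, 0.524 and 0.194. Without TSA-treated replicate 2 the first and the last were 1.13 and 0.484, and without replicate 1 they were 0.442 and -0.183. The numbers higher with 1 array left out ran from 5 to 13, from 2 to 10 and from 1 to 7 in the 3 comparisons as given, and without TSA-treated replicate 1 there were also 5 lower in the first and 6 in the last. Epb42, a protein of the red cell membrane, was at 8.88 and 8.77 in TSA-treated, 7.90 and 8.18 in diabetic and 6.83 and 6.45 in non-diabetic mice. Hemgn and Ermap had the same order, with differences of 1.34 and 1.38 between TSA-treated and non-diabetic mice. Alas2, the first enzyme of heme synthesis in red cell precursors, did not: it was at 11.39 and 8.60 in TSA-treated, 11.24 and 10.96 in diabetic and 11.12 and 11.09 in non-diabetic mice. Gata1, Sptb and Epor too were lower in TSA-treated than in non-diabetic mice, with differences of -0.66, -0.48 and -0.12. Differences were positive in 14, 15 and 12 of the 18 genes in the 3 comparisons as given. Only Hba-a1 of the 18 lay below the array medians, and the summed level of the list (log2 of the summed linear levels) was 15.08 to 15.56 in TSA-treated, 14.98 to 15.13 in diabetic and 14.45 to 14.50 in non-diabetic mice. Proliferation genes behaved likewise, with summed levels of 14.36 to 14.62, 14.06 to 14.40 and 13.50 to 13.55. Their part in the members' differences was not tested, and in RNA of whole spleen cells more cells of a type and more RNA per cell cannot be told apart.

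Lymphocyte markers ran the other way, and markers of another organ were present. All 9 measured B cell genes of 10 were lower at an unadjusted p under 0.05 in TSA-treated than in non-diabetic mice, with summed levels of 11.38 to 12.51 in TSA-treated, 13.07 in both diabetic arrays and 13.24 in both non-diabetic arrays. T cell genes (10 of 12 measured) summed to 10.51 to 10.82, 10.95 to 11.08 and 11.34 to 11.38 in the same groups. The lymphocyte identity of splenocytes was thus present in every group. Exocrine pancreas genes, which splenocytes should lack, were measured for 16 of 20 and summed to 12.72 to 12.93 in TSA-treated, 15.49 to 15.53 in diabetic and 9.32 to 9.44 in non-diabetic mice, none of them with a mean over the 6 arrays below that of the median probe set. In diabetic against non-diabetic mice, 15 of these 16 were called higher by limma. In TSA-treated mice, where most members were highest, these genes lay between the untreated groups. The part of pancreatic RNA in the members' levels was not tested. Neutrophil markers, of which 13 of 15 were measured and Mpo is also among the oxidant-producing enzymes, had 0 higher and 6 lower at an unadjusted p under 0.05 in TSA-treated than in diabetic mice, 3 higher and 1 lower in TSA-treated than in non-diabetic mice, and 4 higher and 0 lower in diabetic than in non-diabetic mice, with medians of -0.635, -0.395 and 0.548. Without TSA-treated replicate 2 the first had 0 higher and 4 lower with a median of -0.398, and the second 2 higher and 0 lower with a median of -0.0119, while without replicate 1 the medians were -1.01 and -0.847. The number lower in the first with 1 array left out ran from 1, without diabetic replicate 1, to 9, without TSA-treated replicate 1, and the number higher in the last from 3, without either non-diabetic array, to 9, without either TSA-treated array. Their summed levels were 14.62 to 14.76 in TSA-treated, 15.11 to 15.15 in diabetic and 14.42 to 14.53 in non-diabetic mice, and their part in the levels of the oxidant-producing enzymes was not tested. The 6 plasma cell markers had 0 higher and 3 lower in TSA-treated than in diabetic mice and 0 higher and 4 lower than in non-diabetic mice, and the 14 macrophage markers 0 and 1, and 3 and 1. Neutrophil, macrophage, plasma cell, NK cell and adipocyte lists had no gene called by limma in any comparison but Adipoq, the adipocyte hormone adiponectin, which was lower in TSA-treated mice than in either untreated group.

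**Figure D5:**
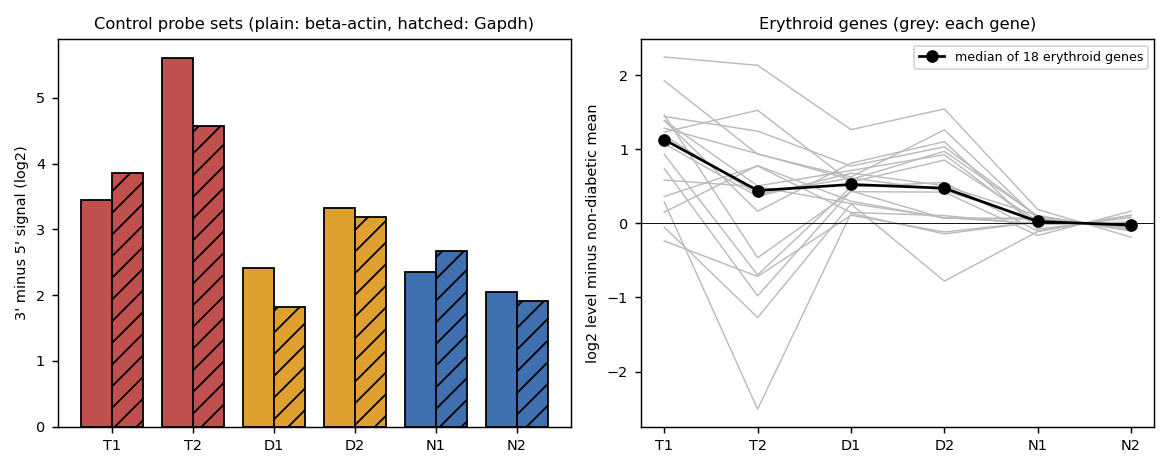
Left, log2 signal of the 3′ control probe set minus the 5′ one on each array for beta-actin (plain bars) and Gapdh (hatched bars), highest on TSA-treated replicate 2 (T2), at 5.61 and 4.58. Right, log2 level of 18 erythroid genes on each array less their mean in non-diabetic mice, each gene in grey and the median in black, with the non-diabetic arrays (N1, N2) near 0 and TSA-treated replicate 2 holding both the genes that stayed high and those, Alas2 among them, that lay far below 0.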

How the data were processed

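Values are as the authors deposited them: levels on the log2 scale, made by quantile normalization and RMA (Robust Multi-array Average) summaries in S+Array Analyzer under S-Plus. From them, 64 Affymetrix control probe sets were set aside (used for the 3′ and 5′ comparison) and 45037 probe sets of all 6 arrays entered 1 linear model of the 3 group means (limma 3.58.1, R 4.3.3, 3 residual and 2.939 prior degrees of freedom). P-values were adjusted over all 45037 in each of the 3 comparisons by Benjamini-Hochberg, a probe set being called under 0.05. No filter on level was used. Of the probe sets, 34945 named 1 gene, 932 several and 9160 none in the annotation used. Members were all probe sets naming a member gene alone, and other genes were given by their brightest probe set. Members and lists were chosen with earlier results of these data known. Values on every array were given for the brightest probe set of a member and for any whose difference departed from it by over 0.5. Each pathway list was named by up to 3 genes with the smallest p, and Nqo1, the member with the widest range, by the 5 genes nearest to it; marker genes named were chosen after their values were seen. The number of arrays limits the precision. The scripts were tested on simulated data. LPE was rewritten from how it was published. Promoters came from RefSeq, and figures were drawn with matplotlib 3.10.9 in Python 3.11.15. Prdx1, Prdx5 and Prdx6 were not analysed here, as no probe set names any of them alone.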

Additional observations from a re-analysis of the deposited data

How the results depend on the processing

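Of 432 differences of the 9 member genes under the alternatives, 412 kept their direction and their side of the threshold, 19 reversed and 1 passed the threshold. With a gene's probe sets averaged in place of its brightest one, TSA-treated minus diabetic turned to 0.20 for Txnrd1, 0.15 for Prdx2 and -0.10 for Gsr, TSA-treated minus non-diabetic to 0.15 for Txnrd1 and -0.15 for Sod1, and diabetic minus non-diabetic to -0.26 for Sod1. The last was -0.11 with quantile normalization again. With 1 array left out, TSA-treated minus diabetic ran from -0.64 to 0.12 for Txnrd1 over the arrays, from -0.84 to 0.55 for Prdx2, from -0.12 to 0.47 for Gpx1 and from -0.17 to 0.74 for Gsr. TSA-treated minus non-diabetic ran from -0.71 to 0.052 for Txnrd1, from -0.36 to 1.03 for Prdx2 and from 0.96 to 1.42 for Cat, the highest being the call without TSA-treated replicate 1. Diabetic minus non-diabetic ran from -0.20 to 0.059 for Txnrd1, from -0.058 to 0.092 for Sod1, from -0.017 to 0.30 for Sod2 and from -0.047 to 0.86 for Gsr.

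Over all probe sets, TSA-treated minus diabetic had 12 calls, against 0 to 1047 with 1 array left out, 57 by LPE, 22 among probe sets above the median level, and 0 with the 2 groups alone, median centring, the methods' t-test or an adjusted p under 0.001. TSA-treated minus non-diabetic had 31, against 0 to 2045 with 1 array left out, 714 with the 2 groups alone, 847 by LPE, 60 with quantile normalization again, 2 by the methods' t-test and 0 at 0.001. Diabetic minus non-diabetic had 40, against 23 to 243, 300 by LPE, 1 by the methods' t-test and 20 at 0.001. Members called numbered 0 in each, and 0 to 1, 0 to 3 and 0 with 1 array left out, the most without TSA-treated replicate 1, where they were probe sets of Cat, Txn1 and Txnrd1 (1424486_a_at) against non-diabetic mice and that of Txnrd1 against diabetic mice, and LPE called 1 in TSA-treated minus non-diabetic. A group with 1 array left out keeps 1, assumed to vary like the other groups.

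Member probe sets at an unadjusted p under 0.05 (a count added after seeing the data) numbered 2, 9 and 1 in the 3 comparisons in that order. With 1 array left out they were 1 to 10, 2 to 10 and 0 to 4. By LPE they were 0, 3 and 3, and by the methods' t-test 0 and 4 in the first 2. Quantile normalization again gave 4 in the first, and in the last an intensity trend or probe sets above the median level gave 0 and the 2 groups alone 3. The labels tie same-numbered arrays of different groups by their number alone. Their deviations correlated at -0.105 for TSA-treated and diabetic, -0.0363 for TSA-treated and non-diabetic and -0.335 for diabetic and non-diabetic arrays. What the last value reflects was not tested. With the replicate block, TSA-treated minus diabetic had 0 calls over all probe sets and diabetic minus non-diabetic 0 members at that unadjusted p; the block moved no other count by over 1.5 times and changed no member's call. A crossed replicate block, with the numbers of the diabetic arrays exchanged, gave 0 and 2. The cause of these shifts was not tested. Dim probe sets limit the rest, 3 of the 22 members lying below the array medians on all 6 arrays.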
